A study of Mus musculus with 8 samples.

Results

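Prolactin signalling was examined in sorted luminal cells of the mouse mammary gland through the genes for Jak2, Stat5a and Stat5b, which carry the signal of the prolactin receptor, and for Cish, Socs1 and Socs2, which inhibit it. The members were named as a pathway and found by gene symbol, with 1 probe set each, the one of highest mean over the arrays where several exist. Of the 7 genes named, 6 were measured among 19505 genes in all. No probe set was matched to Prlr, the gene of the receptor itself, which is not analysed here.

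The series holds 8 Affymetrix arrays of luminal cells from 15-day-pregnant mice, 4 labelled a3a6KO and 4 labelled control (Ctrl). The a3a6KO cells are named for the integrin chains alpha 3 and alpha 6, parts of the receptors by which cells hold on to laminin in the basement membrane. Which Cre or other driver deleted the genes, what was deleted, and the strain and age of the mice were not stated in the labels, and the titles of the a3a6KO samples also carry the word Ctrl although their subtype label names the knockout. Each sample was enzyme-digested fresh tissue sorted by flow cytometry, and 500 pg of total RNA was amplified for each array. The design calls the replicates biological, and the labels give no batch.

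Prolactin, and in pregnancy the placental lactogens, bind the prolactin receptor and activate the tyrosine kinase Jak2 bound to its tail. Jak2 phosphorylates Stat5a and Stat5b, which enter the nucleus and switch on genes of alveolar growth and milk, and in mice Stat5a is the form on which alveolar development chiefly depends. Stat5 also switches on its own inhibitors: Cish and Socs2 bind phosphorylated receptor tails, and Socs1 blocks the kinase. The level of such a feedback gene is widely read as a trace of recent Stat5 activity, but mRNA levels do not measure phosphorylation.

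All values are log2 values as deposited, and all differences are a3a6KO minus control on that scale. A probe set's level depends on its probes, so no gene's level is set above or below another's, and means over several genes are read only for how they differ between arrays. Background on an array was taken as the level that 95% of its 5222 intron control sets stay under, which lay between 6.38 and 6.90. The luminal markers matched the label: 8 of 8, Krt8, Krt18 and Epcam among them, exceeded background on every array, as did 5 of 5 milk protein markers. Markers of other cell types were also read. Of 12 basal markers, 9 exceeded background on any array, Krt14 and Acta2 on every array and Krt5 on 1 a3a6KO and 3 control arrays. Fabp4 of the adipocyte list exceeded it on every array, between 8.94 in a3a6KO 2 and 11.42 in control 4. Of the measured markers, 1 of 6 leukocyte, 3 of 5 endothelial and 1 of 4 fibroblast markers exceeded it on any array. Itga6 was at 5.95, 3.65, 8.21 and 7.85 in a3a6KO 1 to 4 and at 8.83, 8.73, 9.14 and 8.80 in control 1 to 4. Itga3 was at 5.11, 4.34, 5.55 and 5.60 in a3a6KO and at 6.72, 6.30, 5.37 and 7.27 in control, above background on control 4 alone. Neither passed the test over all genes (limma, adjusted p = 0.944 for each), and Itga6 stayed above background on a3a6KO 3 and 4. Whether the probes of these sets fall inside what was deleted was not stated.

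Cish was the member that differed most between the groups, with a mean 1.17 log2 units lower in a3a6KO (SE 0.348, n = 4 per group), a 2.25-fold difference. Jak2, Stat5a, Stat5b, Socs1 and Socs2 differed by between -0.31 and 0.29, each with a 95% interval that spans 0. Of the 6 members, 0 passed the threshold of an adjusted p of 0.05 (limma with Benjamini-Hochberg adjustment over all genes), where the share of all genes called was 0%. At an unadjusted p under 0.05 it was 1 of the 6, Cish, where 5.13% of all genes lay under that value and 2.73% did so with a lower mean in a3a6KO. In such sorted bulk samples, fewer cells of a type and less RNA per cell cannot be told apart. The groups overlapped in every member, and they did not overlap in 2.94% of all genes.

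**Figure D1:**
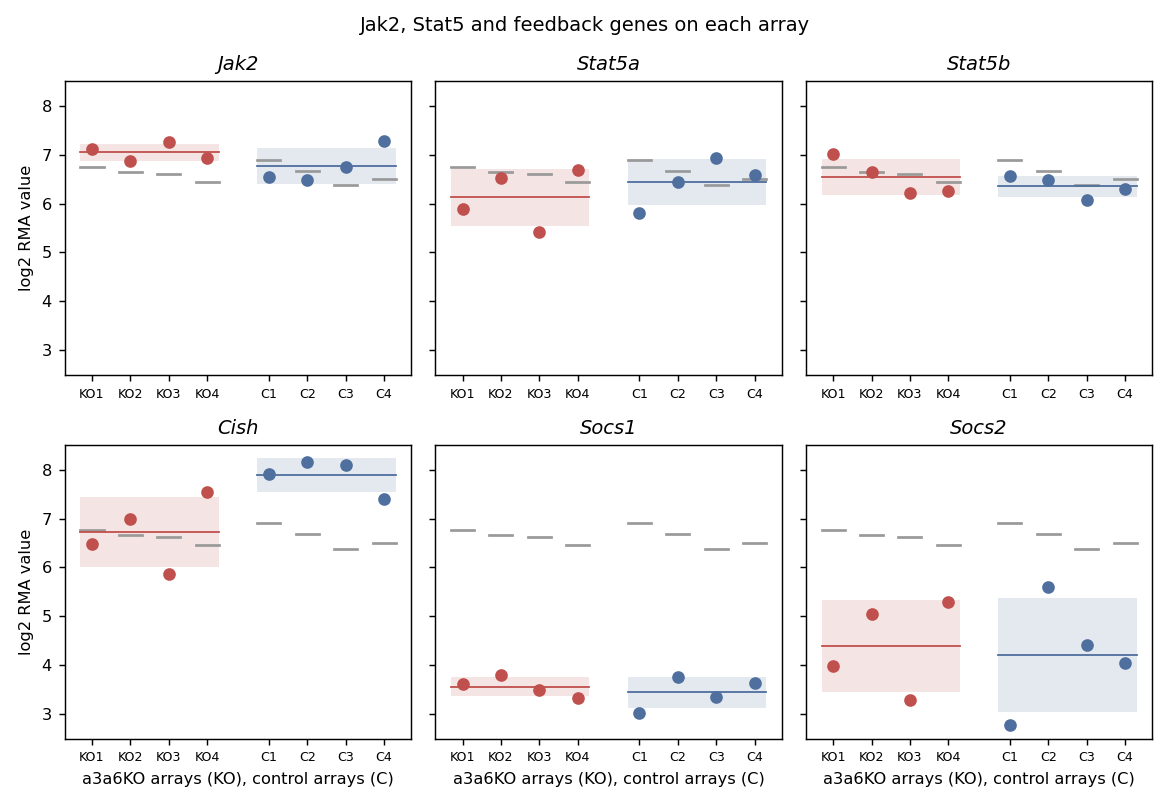
Log2 values of the 6 measured members on each array, with a3a6KO arrays in red (KO1 to KO4) and control arrays in blue (C1 to C4). Lines and shaded bands are group means ± SD (n = 4), and grey ticks mark background on that array, the 95th percentile of its intron sets. Cish lies lower on 3 of the 4 a3a6KO arrays than on any control array, and Socs1 and Socs2 lie under the grey ticks on all 8 arrays.

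Jak2, the kinase of the pathway, was at 7.13, 6.87, 7.27 and 6.94 in a3a6KO 1 to 4 and at 6.54, 6.48, 6.75 and 7.29 in control 1 to 4. The a3a6KO values stood close together and above 3 of the controls, while control 4 exceeded all of them. The means were 7.05 ± 0.18 in a3a6KO and 6.76 ± 0.37 in control (SD, n = 4 each), a difference of 0.29 (SE 0.213, 95% interval -0.19 to 0.77, limma adjusted p = 0.95, exact permutation p = 0.229). Jak2 exceeded background on 4 of 4 a3a6KO arrays and on 2 of 4 control arrays, so its control level was measured at the edge of background.

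Stat5a was at 5.90, 6.53, 5.42 and 6.69 in a3a6KO 1 to 4 and at 5.81, 6.45, 6.93 and 6.58 in control 1 to 4. The groups overlapped broadly, with a low array in each, a3a6KO 3 and control 1. The means of 6.13 ± 0.59 in a3a6KO and 6.44 ± 0.47 in control differed by -0.31 (SE 0.33, 95% interval -1.05 to 0.44, limma adjusted p = 0.952, exact permutation p = 0.457). The interval thus reaches from a fall of about the size seen for Cish to a small rise. Without a3a6KO 3 the difference was -0.07. Stat5a exceeded background on 1 of 4 a3a6KO arrays and 2 of 4 control arrays, so most of its values lay within the range of the intron sets.

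Stat5b, whose gene lies beside Stat5a on chromosome 11 and encodes a closely similar protein, was at 7.03, 6.66, 6.23 and 6.27 in a3a6KO 1 to 4 and at 6.56, 6.48, 6.07 and 6.31 in control 1 to 4. The high values of a3a6KO 1 and 2 stood above every control and the other a3a6KO values lay within the control range. The means were 6.55 ± 0.38 in a3a6KO and 6.36 ± 0.22 in control, a difference of 0.19 (SE 0.22, 95% interval -0.30 to 0.69, limma adjusted p = 0.956, exact permutation p = 0.429). Whether probes of the Stat5a and Stat5b sets also bind transcripts of the other gene was not tested. Stat5b exceeded background on 2 a3a6KO and 0 control arrays, and its difference was 0.03 without a3a6KO 1.

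Cish, the feedback inhibitor whose gene Stat5 induces, was at 6.48, 7.0, 5.87 and 7.55 in a3a6KO 1 to 4 and at 7.91, 8.17, 8.10 and 7.40 in control 1 to 4. On 3 of the 4 a3a6KO arrays Cish lay below every control, and the groups overlapped through a3a6KO 4, which stood above control 4. The means were 6.72 ± 0.72 in a3a6KO and 7.89 ± 0.35 in control (SD, n = 4 each). The 95% interval of the difference ran from -1.95 to -0.39, or from 0.258 to 0.764 of the control level. Over all genes Cish ranked 156 by p-value, with an unadjusted limma p of 0.00794 and an adjusted p of 0.944. The exact permutation test over the 70 assignments of arrays to groups gave p = 0.0571, two-sided, where 0.0286 is the smallest it can give.

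Every control array, and a3a6KO 2 and 4, read Cish above background. On a3a6KO 1 and 3 it fell within the range of the intron sets, above 93.6% and 91.6% of them, so its size on these arrays is less certain. The difference held its direction with each array left out in turn and lay between -1.45 and -0.89. The lower size belongs to the fit without a3a6KO 3.

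**Figure D2:**
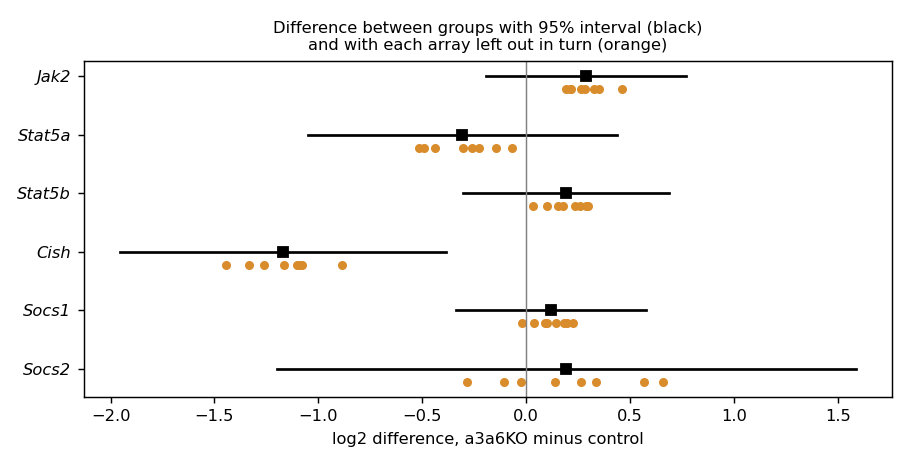
Log2 difference of each member, a3a6KO minus control, with its 95% interval in black and the same difference with each of the 8 arrays left out in turn in orange. Cish stays between -1.45 and -0.89, and Socs1 and Socs2 fall on either side of 0.

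The stretch at the start of Cish is shown because the window searched there holds the letters of the Stat5 recognition motif. The rest of the gene and its surroundings were not searched. Stat5 dimers bind the palindrome TTCNNNGAA, which reads the same on both strands, and the search allowed overlapping matches. The RefSeq window of Cish (build GRCm38.p6, plus strand) held 2 matches, chr9:107296659-107296667 and chr9:107296670-107296678, both within the first 20 bases after the annotated start. The line below gives the 250 bases before that start and these 20 bases, chr9:107296409-107296678, 5′ to 3′, with the matches in capitals.
Cish: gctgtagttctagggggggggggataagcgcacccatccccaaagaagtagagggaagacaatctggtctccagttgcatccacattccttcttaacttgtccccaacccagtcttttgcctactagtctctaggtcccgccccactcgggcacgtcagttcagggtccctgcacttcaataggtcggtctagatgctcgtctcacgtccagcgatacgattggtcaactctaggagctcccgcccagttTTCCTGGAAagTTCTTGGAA
Windows of all genes reach from 250 bases before to 50 after the start. Of 32851 such windows, 8.30% held at least 1 match and 0.457% at least 2. Among the other members, the windows of Jak2, Stat5a, Stat5b and Socs1 held 0 matches, 1 of the 3 windows of Prlr held 1, and Socs2 had no entry. Of the measured genes, 81 had a window with at least 2 matches, Cish included. In 46 of these the mean was lower in a3a6KO (56.8%), with a median difference of -0.04, against 49.7% and a median of 0.0025 in the 14275 genes with no match. Of the 1416 genes with at least 1 match, 51.3% were lower, with a median of -0.0075. A match is a run of letters and was not tested for binding.

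Socs2, which restrains growth hormone and prolactin receptors, was at 3.97, 5.04, 3.27 and 5.29 in a3a6KO 1 to 4 and at 2.76, 5.60, 4.41 and 4.03 in control 1 to 4. It had the widest span of the members, 2.84 log2 units between control 1 and control 2, against a median span of 1.01 over all genes. The means of 4.39 ± 0.94 in a3a6KO and 4.20 ± 1.17 in control differed by 0.19 (SE 0.618, 95% interval -1.20 to 1.58, limma adjusted p = 0.983, exact permutation p = 0.829). The difference became -0.29 without control 1, -0.02 without a3a6KO 2 and -0.11 without a3a6KO 4.

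Socs1, the inhibitor that acts on Jak kinases, was at 3.61, 3.80, 3.48 and 3.33 in a3a6KO 1 to 4 and at 3.02, 3.75, 3.35 and 3.62 in control 1 to 4. Its values were low and close together in both groups. The difference was 0.12 (SE 0.203, 95% interval -0.34 to 0.58, limma adjusted p = 0.976, exact permutation p = 0.571), and -0.02 without control 1. Both Socs1 and Socs2 exceeded background on 0 of 8 arrays. A change in either could therefore be missed, and of the 3 feedback genes Cish alone was read above background.

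Set side by side, the signal genes (Jak2, Stat5a, Stat5b) and the feedback genes (Cish, Socs1, Socs2) each differed between the groups, as a mean, by less than the spread within them. The mean of the 3 signal genes was 6.58 ± 0.18 in a3a6KO and 6.52 ± 0.18 in control (SD, n = 4 each). The mean of the 3 feedback genes was 4.89 ± 0.55 in a3a6KO and 5.18 ± 0.53 in control. Feedback minus signal was -2.0, -1.41, -2.10 and -1.24 in a3a6KO 1 to 4 and -1.74, -0.63, -1.30 and -1.71 in control 1 to 4. The difference of that measure between the groups was -0.34, less than the SD of either group (0.426 in a3a6KO and 0.517 in control). Socs1 and Socs2 on every array, and Stat5a and Stat5b on most, were within the range of the intron sets, so this measure cannot tell whether feedback and signal genes part.

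Within the a3a6KO group, Cish, Stat5a and Socs2 put the arrays in the same order, highest in a3a6KO 4, then 2, then 1 and lowest in a3a6KO 3, and Jak2 put a3a6KO 3 highest. In the control group the orders differed, with Cish highest in control 2, Stat5a in control 3 and Socs2 in control 2. These orders are a description of 4 arrays in each group, noticed after the values were seen. Socs2 was below background on every array and Stat5a on all a3a6KO arrays except a3a6KO 4.

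In each group, the array of lowest Cish had the highest scores of basal, of endothelial, of fibroblast and of milk protein markers. The luminal, hormone-sensing, leukocyte and adipocyte scores did not peak on that array in both groups. The basal score, the mean deviation of the 12 markers of the list, of which 12 were measured and 9 exceeded background on any array, was -0.89, -0.92, 0.74 and -0.68 in a3a6KO 1 to 4 and -0.23, 0.93, -0.27 and 1.34 in control 1 to 4. These arrays, a3a6KO 3 and control 4, were also those of highest Jak2 in their groups, although control 2 paired a high basal score with the highest Cish. The list was split: the contractile genes Acta2, Cnn1, Mylk, Tagln, Myl9 and Myh11 were highest in a3a6KO 3 and in control 4. So was the keratin gene Krt17, below background throughout, whereas the keratin gene Krt5 was highest in a3a6KO 4 (7.03) and control 3 (9.54). Krt14 was highest in a3a6KO 3 (8.87) and control 2 (10.91), and Trp63 in a3a6KO 3 (5.12) and control 2 (8.37). Endothelial scores were 1.10 in a3a6KO 3 and 1.57 in control 4, and between -0.89 and -0.01 elsewhere, and 2 of the 5 endothelial markers, Kdr and Tek, exceeded background on 0 arrays. Fibroblast scores were 0.84 in a3a6KO 3 and 0.41 in control 4, and between -0.34 and -0.02 elsewhere. Of 4 measured fibroblast markers, 1 exceeded background on any array. The milk protein score was -0.53, -0.22, -0.03 and -0.034 in a3a6KO 1 to 4. In control 1 to 4 it was 0.09, 0.13, 0.16 and 0.43, and its genes are also in the Stat5-induced list below. Between the groups the basal score ran the other way, lower in a3a6KO as Cish was, by 0.88. The larger differences were in Krt5 (-2.54), Trp63 (-2.43) and Krt14 (-1.60), with a limma adjusted p of 0.944 for each. The contractile genes Acta2, Cnn1, Mylk and Tagln differed by -0.56, -0.62, -0.44 and -0.05, Myh11 by -0.35 and Myl9 by -1.06 (SE 0.458). Krt17 differed by -0.115, so the keratin and contractile genes did not part cleanly between the groups. The basal score mixes these parts of the list, also where it serves as a covariate. The Cish difference was -1.05 with a3a6KO 3 and control 4 both left out, and -1.55 with the basal score as a covariate (limma adjusted p = 0.908 and 0.79). The Stat5a difference was -0.02 and -0.50 in the same fits, and that of Jak2 0.39 and 0.47.

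**Figure D3:**
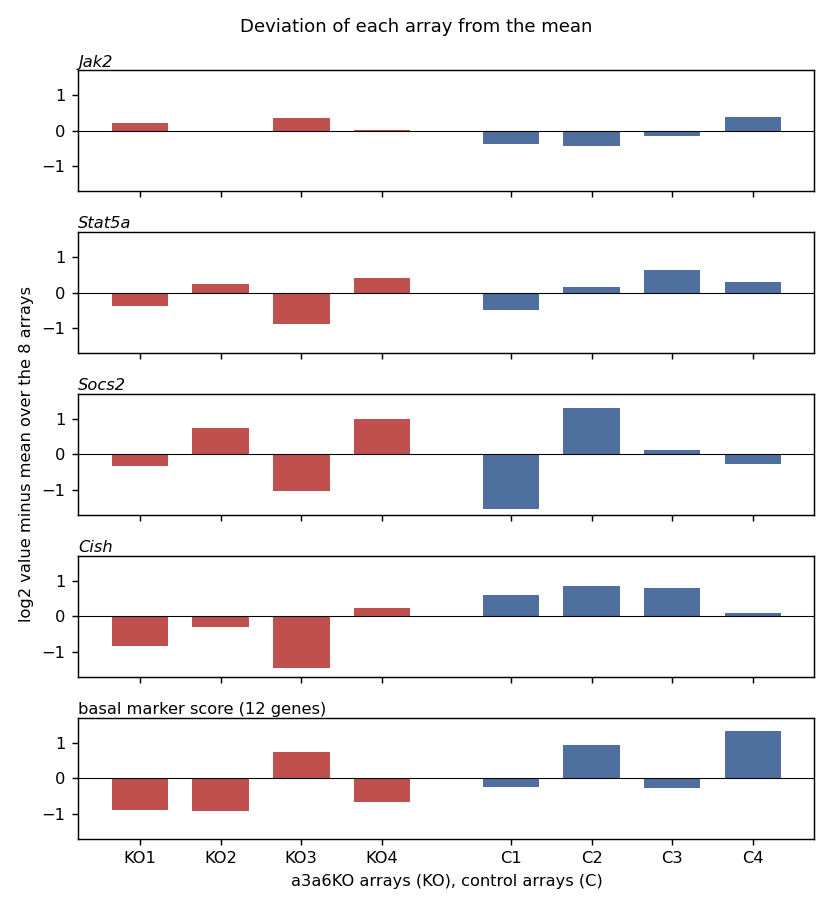
Log2 value of Jak2, Stat5a, Socs2 and Cish on each array minus the gene's mean over the 8 arrays, and the score of 12 basal markers, with a3a6KO arrays in red and control arrays in blue. The lowest Cish value, in KO3, coincides with the lowest Stat5a value and with the highest basal score of the a3a6KO arrays.

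Other genes of the pathway were taken from 9 lists of 96 genes, of which 90 were measured. Of the 90, 0 passed the threshold over all genes, 7 had an unadjusted limma p under 0.05 (5.13% of all genes did), and 50 exceeded background on no array. The mean was lower in a3a6KO in 52 and higher in 38, with a median difference of -0.07, against 50.1% lower and a median of -0.0025 over all genes.

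Among the 6 measured of 8 other Jak and Stat genes, 0 passed in either direction, 4 were lower and 2 higher, with a median of -0.15. Stat3, the family member that takes over at involution, exceeded background on every array, with 7.37, 7.01, 7.81 and 6.76 in a3a6KO 1 to 4 and 7.55, 7.81, 7.59 and 7.80 in control 1 to 4. Its difference was -0.45 (SE 0.234, limma adjusted p = 0.944), and a3a6KO 1, 2 and 4 lay below every control while a3a6KO 3 matched the highest. Tyk2, a kinase of interferon receptors, differed by -1.18 (SE 0.465) and exceeded background on 0 a3a6KO and 2 control arrays. Stat6, which serves interleukin 4 signalling, differed by -0.14 and Stat2, which serves interferon signalling, by -0.16, both below background on all 8 arrays.

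All 5 other Socs genes were measured, 0 passed, 3 were higher and 2 lower, and their median was 0.08. Socs7 was at 4.73, 5.05, 4.97 and 4.90 in a3a6KO 1 to 4 and at 6.0, 5.68, 5.23 and 6.22 in control 1 to 4. Every a3a6KO value lay below every control value, a pattern that 1.56% of all genes show in this direction. Its difference was -0.87 (SE 0.226, limma adjusted p = 0.944), but all 8 values were below background. Socs7 was named for having the smallest p of these 5 genes, so its lack of overlap is no separate support. Socs5 differed by 0.55 (SE 0.221) and Socs3, the inhibitor tied to Stat3, by -0.28 (SE 0.326), both below background on all 8 arrays. Socs4 differed by 0.46 (SE 0.733) and exceeded background on a3a6KO 4 alone. It was at 7.34 there, against 3.79 to 4.29 on the other a3a6KO arrays.

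The 17 phosphatases, Pias proteins and other inhibitors of the pathway were all measured, and 0 passed, with 12 lower, 5 higher and a median of -0.16. Fbxw11 encodes a beta-TrCP protein, which in human cells marks the prolactin receptor for degradation. It was at 7.48, 7.59, 6.34 and 7.11 in a3a6KO 1 to 4 and at 8.64, 8.07, 8.38 and 7.86 in control 1 to 4. The groups did not overlap, as in 1.56% of all genes in this direction, and all arrays except a3a6KO 3 exceeded background. The Fbxw11 difference was -1.11 (SE 0.298, unadjusted limma p = 0.00451, adjusted p = 0.944, exact permutation p = 0.0286, the smallest possible). Fbxw11 was named for having the smallest p of these 17 genes, so its p-values and its lack of overlap are no separate support. Pias4 differed by 0.66 (SE 0.221), Grb10, an adaptor that restrains receptor kinases, by -0.82 (SE 0.458) and Pias1 by -0.37 (SE 0.23), all below background on all 8 arrays.

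Partners and side branches of the receptor gave 10 lower and 8 higher of 18 measured genes, 0 past the threshold, and a median of -0.05. The adaptor gene Gab2 differed by 0.35 (SE 0.18), the adaptor gene Grb2 by 0.56 (SE 0.288), Vav1 by -0.50 (SE 0.31) and the survival kinase gene Akt1 by -0.62 (SE 0.427). Background was exceeded by Akt1 on control 4 alone and by Gab2, Grb2 and Vav1 on 0 arrays.

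Other receptors that signal through Jak2 were measured in 11 of 12 genes, with 8 higher, 3 lower, 0 past the threshold and a median of 0.15. The erythropoietin receptor gene Epor differed by 0.31 (SE 0.18), Csf2rb by 0.55 (SE 0.323), Csf2ra by 0.30 (SE 0.225), Il12rb2 by 0.32 (SE 0.282) and the growth hormone receptor gene Ghr by -0.35 (SE 0.317), and none of these 5 exceeded background on any array. Of the prolactin family ligands 5 of 7 were measured, all below background on all 8 arrays, with 0 past the threshold, 3 lower, 2 higher and a median of -0.0025. Gh differed by -0.35 (SE 0.172), Prl3d2 by -0.21, Prl2c2 by 0.10 and Prl3d3 by 0.09.

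Cofactors of Stat5 in the mammary epithelium split evenly, with 6 of 12 lower and 6 higher, 0 past the threshold and a median of 0.0025. Elf5, the alveolar transcription factor, was at 8.82, 9.60, 9.03 and 9.53 in a3a6KO 1 to 4 and at 9.54, 9.69, 9.62 and 9.32 in control 1 to 4. The 2 low arrays, a3a6KO 1 and 3, were also those of lowest Cish and Stat5a in that group. The groups overlapped in Elf5. Its difference of -0.30 (SE 0.213, limma adjusted p = 0.95) was smaller in size than the SD of a3a6KO (0.38) and larger than that of control (0.16). The coactivator gene Crebbp differed by 0.28 (SE 0.193), the glucocorticoid receptor gene Nr3c1 by 0.23 (SE 0.187) and Nmi, which binds Stat proteins, by 0.33 (SE 0.35). Crebbp exceeded background on every array, and Nr3c1 and Nmi on 0.

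**Figure D4:**
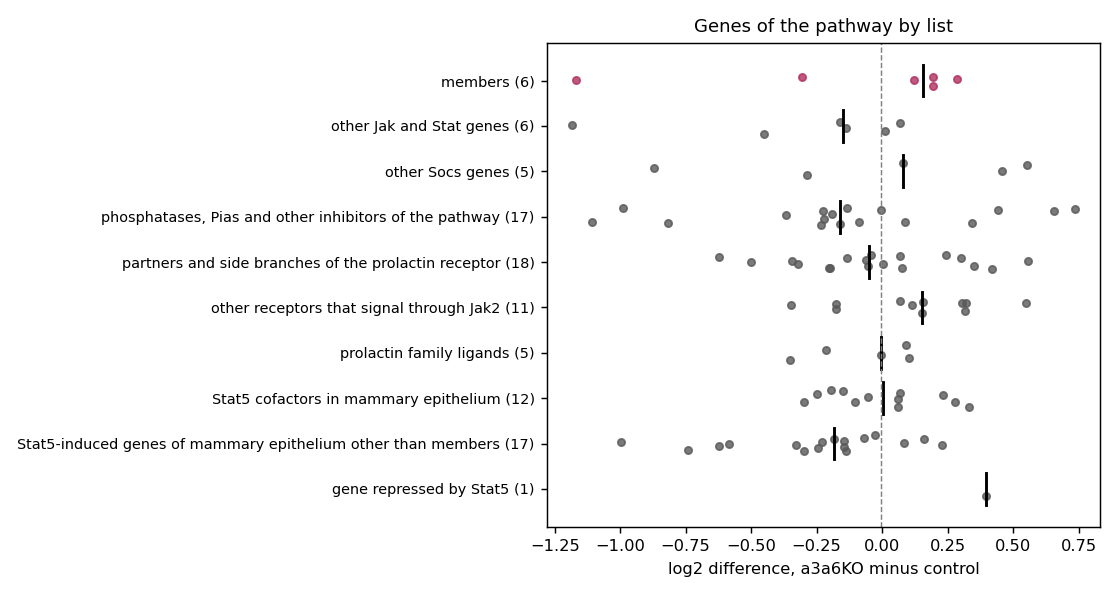
Log2 difference, a3a6KO minus control, of each measured gene of the pathway (points, spread at random up and down for sight) by list, with the number measured in brackets and the list median as a black bar. The dashed line is the median of all 19505 genes, -0.0025, and the median of the Stat5-induced list lies at -0.18.

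Genes that Stat5 induces in this tissue, the members aside, were lower in a3a6KO in 14 of 17 measured genes, where 50.1% of all genes were lower. Of the 17, 0 passed the threshold in either direction, and their median was -0.18, against -0.0025 over all genes. The caseins, Wap, Lalba and Glycam1 of this list are milk protein genes, chosen with their earlier result known, so the count is no separate support. Lalba, which encodes a subunit of lactose synthase, was at 8.09, 8.72, 9.21 and 9.13 in a3a6KO 1 to 4 and at 9.26, 9.05, 9.75 and 10.05 in control 1 to 4. Its difference was -0.74 (SE 0.306). The order of the a3a6KO arrays was not that of Cish: a3a6KO 3, the lowest in Cish, was the highest in Lalba. Wap differed by -0.58 (SE 0.258), the casein genes Csn3 by -0.33 (SE 0.16), Csn1s1 by -0.24 (SE 0.145) and Csn2 by -0.14 (SE 0.148), with limma adjusted p-values of 0.944 to 0.952. In a3a6KO, Csn1s1 and Csn2 were lowest in a3a6KO 1, at 11.6 and 12.2. Bcl6, a gene that Stat5 represses, was at 6.49, 4.70, 6.90 and 6.91 in a3a6KO 1 to 4 and at 5.0, 5.10, 6.29 and 7.03 in control 1 to 4, a difference of 0.39 (SE 0.593, limma adjusted p = 0.97) well within its spread. Ccnd1 was not analysed here.

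Genes whose pattern over the 8 arrays was most like that of a member were sought by Pearson correlation among the 2746 named genes above background on at least 4 arrays. Nptn (0.95), Znrd1 (0.93) and Vps25 (0.93) were most like Cish, and with group means removed these values were 0.92, 0.83 and 0.89. Nptn averaged 6.32 in a3a6KO and 7.23 in control, a difference of -0.91, and Znrd1 and Vps25 differed by -0.55 and -0.71. Idnk (0.92), Phf3 (0.91) and Aup1 (0.91) were most like Stat5a, and Klhl24 (0.94), H4c18 (0.91) and H2bc11 (0.91) most like Socs2. The differences of the 6 genes most like Stat5a or Socs2 lay between -0.22 and 0.03. With so many genes searched over 8 arrays, high values arise readily, and no test is attached to them.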

How the data were processed

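The deposited values are log2 values, 1 per probe set and array, which the authors made with Affymetrix Expression Console and RMA, per the submitters' processing notes, with no versions stated. RMA equalizes the arrays by quantiles, which would remove a shift shared by most genes. Of 28846 probe sets, 19572 had 1 gene symbol in GEO's platform annotation and 9274 had none, and 55 genes had several sets. Promoter windows and neighbours come from RefSeq (GRCm38.p6), and the files name no build for the probe sets.

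The test was limma 3.58.1 in R 4.3.3 (lmFit, eBayes, group as the only term, 8 arrays, two-sided), adjusted by Benjamini-Hochberg over 19505 genes at 0.05, and was tested on simulated data. Single values were also given an exact permutation test. Depth has no counterpart on arrays, and their number limits the precision (median SE of a difference 0.234). The members and lists were chosen with earlier results of these data known. Named were all members, up to 4 genes of smallest p of each list, 9 genes fixed by name, some of them also in those lists, and the 3 genes most like Cish, Stat5a and Socs2.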

Additional observations from a re-analysis of the deposited data

Results flagged for a closer look

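An array standing far from the other 3 of its group was found in 5 of 88 groups of 4, where chance gives about 1 in 20. The groups were those of the named genes and of feedback minus signal. None was a member. Stat6 was at 6.43 in a3a6KO 4, against 5.89 to 5.95 in the other a3a6KO arrays. Socs4 was at 7.34 in a3a6KO 4, against 3.79 to 4.29. Csn1s1 was at 11.63 in a3a6KO 1, against 11.81 to 11.82, and at 11.86 in control 3, against 12.05 to 12.08 in the other controls. Csn2 was at 12.24 in a3a6KO 1, against 12.44 to 12.47.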

How the results depend on the processing

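The count of genes called was 0 under all 16 alternatives in limma, with 929 to 1135 genes at an unadjusted p under 0.05 among 19505 tested, and 255 of 4605 with dim genes left out. The smallest limma adjusted p was 0.631 in the main fit. Over the alternatives it ran from 0.058 without control 4, close to the threshold, to 0.964 without a3a6KO 1. Over the alternatives run, Cish (-1.55 to -0.89), Jak2 (0.19 to 0.47), Stat5a (-0.52 to -0.02) and Stat5b (0.03 to 0.30) kept their direction and stayed short of the threshold. The direction turned for Socs1 without control 1 (-0.018), and for Socs2 without control 1 (-0.29), a3a6KO 2 (-0.02) and a3a6KO 4 (-0.11). With each array left out in turn, Socs1 ranged from -0.018 to 0.23, Socs2 from -0.29 to 0.66 and feedback minus signal from -0.49 to -0.11. Leaving out dim genes removes Socs1 and Socs2, and it, array weights and the intensity trend give no value for feedback minus signal. The titles number the replicates alike in both groups, but same-numbered arrays deviated together by correlations of only 0.03, 0.04, -0.05 and -0.06 and not every array was closest to its own number, so the numbers were not taken as pairs. With the replicate block, Cish differed by -1.17 (limma adjusted p = 0.942), and 0 genes were called. The fit without a3a6KO 3 and control 4 was chosen after seeing the data.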
